A study of Rattus norvegicus with 22 samples.

Results

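The tumor necrosis factor (TNF) superfamily and its receptors were examined in oral squamous cell carcinoma (OSCC) of the rat tongue. Members were taken by symbol: array genes named Tnfsf or Tnfrsf with a number, together with Tnf, Lta, Ltb, Ltbr, Fas, Cd40, Cd40lg, Cd27, Cd70, Eda and Edar. In all, 35 of the 19167 gene symbols on the array were members, comprising 17 ligands and 18 receptors, and Edar had no probe under that symbol. They were measured by 41 probes, and for the 6 members with more than 1 probe the probe with the brightest mean over all arrays was used.

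Ligands of this superfamily are trimeric proteins, held in the membrane of the producing cell or shed from it, and they act by clustering receptors on neighboring cells. Some receptors, such as Fas and the type 1 TNF receptor, carry a cytoplasmic death domain. These can assemble caspase-8 or RIPK3 complexes that kill the cell, or signal to NF-kappaB. Most other receptors bind TRAF adaptors and act chiefly through NF-kappaB. Several pairs, including 4-1BB ligand with 4-1BB and GITR ligand with GITR, costimulate T cells, and decoy receptors such as osteoprotegerin capture ligand without signaling.

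The samples were OSCC and phenotypically normal tongue tissue from 11 male F344 rats, 1 piece of each from every rat, measured on 22 one-color Agilent arrays. The labels give 4-NQO (4-nitroquinoline-1-oxide), a carcinogen that forms DNA adducts, as the agent, dissolved in drinking water at 20 ppm and given over 10 weeks. Tissue was harvested 23 to 26 weeks after the first exposure, at about 33 weeks of age. The labels list no treatment for normal tissue and title all 22 arrays as untreated, whereas the deposited protocol takes the normal tissue from beside the lesions of rats that had received 4-NQO, so both tissues came from exposed animals. The normal tissue is therefore no model of an unexposed tongue. Both tissues were bulk pieces, in which fewer cells of a type and less RNA per cell cannot be told apart.

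Expression is given as log2 of the processed signal, with 0 set at the 75th percentile of the array, and every difference is the log2 value in OSCC minus that in normal tissue of the same rat. A gene was called when limma, with rat and tissue as terms, gave a Benjamini-Hochberg adjusted p below 0.05 over all probes and a difference of at least 2-fold. A spot is described as well above background where the scanner software marked it so, which held for 48.42% to 56.12% of the probes on normal arrays and for 52.30% to 65.50% on OSCC arrays. The median difference of all probes was -0.24, and it ranged from -0.44 with arrays scaled to their median to -0.03 after quantile normalization. Normal arrays lay on 3 slides and OSCC arrays on 4 others, so slide and tissue cannot be compared within a slide. All normal arrays and the OSCC arrays of animals 4 and 9 shared 1 scan day, and the remaining 9 OSCC arrays had another.

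To show the start regions of genes on which the results turn, the 250 bases before the first annotated transcript base are printed for Tnf, Ltb, Fas and Tnfsf13 from RefSeq, assembly GRCr8, 5′ to 3′ on the strand of the gene. Capitals mark a match to the kappaB consensus, the AP-1 motif TGANTCA or the TATA motif TATAAA, each searched on both strands. The Tnf window is chr20:3626435-3626684, plus strand, the Ltb window chr20:3634055-3634304, minus strand, the Fas window chr1:241211905-241212154, plus strand, and the Tnfsf13 window chr10:54901816-54902065, minus strand.
Tnf: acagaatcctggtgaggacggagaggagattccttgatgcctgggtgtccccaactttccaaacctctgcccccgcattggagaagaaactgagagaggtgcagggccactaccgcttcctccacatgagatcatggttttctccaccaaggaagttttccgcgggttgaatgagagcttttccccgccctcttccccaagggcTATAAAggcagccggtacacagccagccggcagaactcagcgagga
Ltb: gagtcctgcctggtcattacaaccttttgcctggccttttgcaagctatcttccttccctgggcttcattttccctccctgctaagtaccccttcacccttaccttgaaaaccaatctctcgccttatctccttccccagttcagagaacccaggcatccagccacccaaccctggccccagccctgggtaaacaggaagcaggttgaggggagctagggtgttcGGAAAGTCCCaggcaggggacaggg
Fas: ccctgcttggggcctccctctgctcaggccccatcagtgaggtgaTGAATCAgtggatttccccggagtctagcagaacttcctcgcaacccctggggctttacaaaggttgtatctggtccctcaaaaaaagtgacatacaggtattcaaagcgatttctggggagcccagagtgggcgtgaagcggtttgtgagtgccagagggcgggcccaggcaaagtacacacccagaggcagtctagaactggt
Tnfsf13: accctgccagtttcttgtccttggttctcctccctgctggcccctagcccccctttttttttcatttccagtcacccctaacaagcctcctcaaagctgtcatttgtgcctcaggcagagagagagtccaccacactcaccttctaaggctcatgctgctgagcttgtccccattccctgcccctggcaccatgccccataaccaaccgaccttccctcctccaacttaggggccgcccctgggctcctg

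In these windows the TATA motif of Tnf began 46 bases before the start, the kappaB match of Ltb 25 bases before it and the AP-1 match of Fas 205 bases before it, while the Tnfsf13 window held none of the motifs. RefSeq windows were found for 26 of the 35 members. A kappaB match stood in 4 of them (Lta, Ltb, Tnfrsf8 and Tnfsf14), an AP-1 match in 3 (Fas, Tnfrsf1b and Tnfrsf8) and a TATA match in 6. Of all 33469 promoter windows of the same length, 3.54% held the kappaB, 6.34% the AP-1 and 12.9% the TATA motif. Matches of different motifs did not overlap in any member window. Among the 10 genes called below, 7 had a window, of which 1 held the kappaB, 1 the AP-1 and 2 the TATA motif. Tnfsf9, Tnfrsf18 and Tnfrsf11b had none in the table.

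Of the 35 members, 10 rose in OSCC and 25 were not called in either direction. The genes that rose were the ligands Tnf, Tnfsf13, Ltb and Tnfsf9, the death domain receptor Fas, the decoy receptor Tnfrsf11b, and the receptors Tnfrsf22, Tnfrsf12a, Tnfrsf9 and Tnfrsf18. Over all 19167 genes with 1 probe each, 7.48% were called higher and 7.24% lower. No member was called lower by limma, and none was when the p was left unadjusted or by the methods' t-test, although 2 members (Ltbr and Tnfsf15) were lower at an unadjusted p below 0.05 without a fold limit. The median difference was 0.54 over the members and -0.21 over all genes, and 30 of the 35 differences were positive. By role, 4 of 17 ligands (median difference 0.19) and 1 of 5 death domain receptors (median 0.54) were called higher. So were Tnfrsf11b, the only receptor assigned as a decoy (1.78), and 4 of 12 other receptors (median 0.92).

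Scan day could not be separated from tissue in 9 of the 11 pairs. With scan day as a further term, the tissue difference rested on the pairs of animals 4 and 9 alone. In that fit limma called 0 members in either direction, which so few pairs cannot tie to scan day. The differences of the 10 genes stayed positive, between 1.53 and 2.66, but these genes were chosen with the pairs of animals 4 and 9 included. With the p left unadjusted, a count added after seeing the data, that fit held 7 members higher, 5 of them among the 10, and 3 lower (Tnfsf13b, Tnfsf15 and Tnfsf4), where 6.21% of all genes were higher and 23.0% lower. In those same pairs of animals 4 and 9, with both tissues scanned on 1 day, 23 of all 35 members were higher in animal 4. In animal 9, 28 were higher in OSCC. The median difference in animal 4 was 0.72 over the members and -0.41 over all probes, and in animal 9 it was 1.23 and -0.37. These counts include members not well above background in either tissue, and the share of all genes higher in each pair is not given here. The other 9 pairs alone gave calls for 7 members, while Tnfrsf18, Tnfrsf9 and Tnfsf9 lost theirs. These 7 were higher in both same-day pairs, by 1.27 to 2.89 in animal 4 and by 1.17 to 2.77 in animal 9. How many of all genes called in the 9 pairs were also higher in those of animals 4 and 9 was not tested. The count of 7 can therefore not be read as particular to the members.

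**Figure D1:**
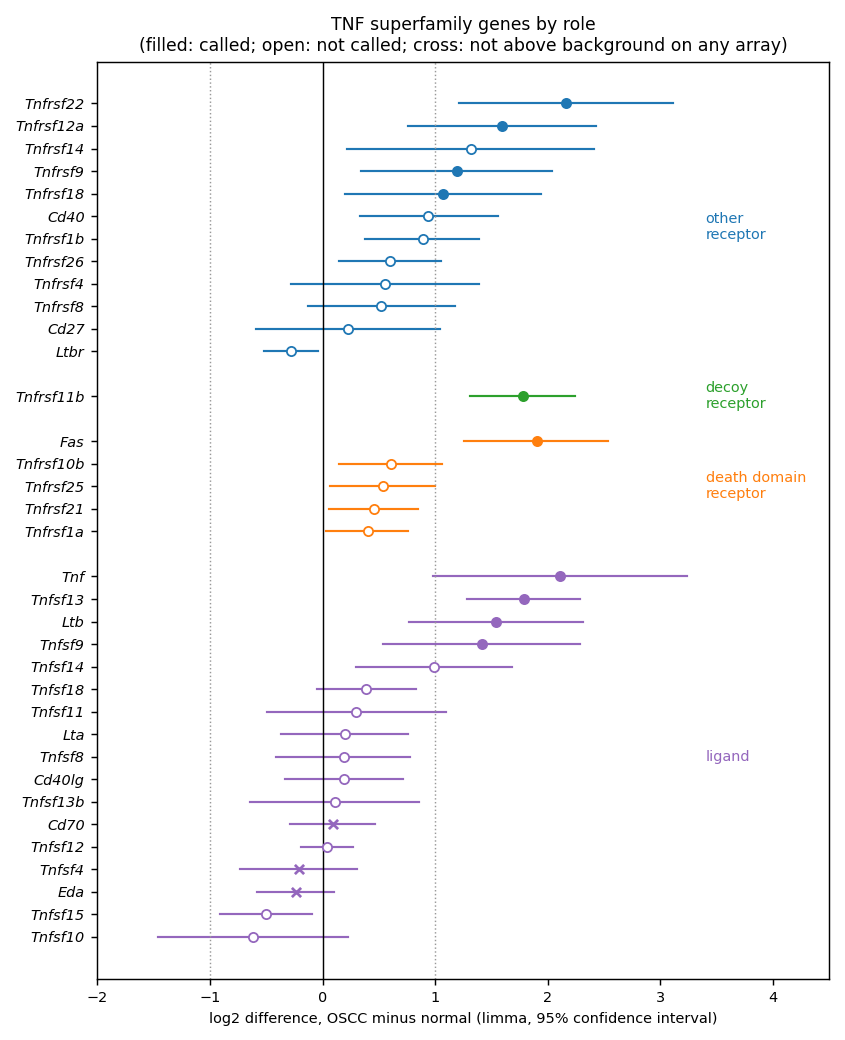
Log2 difference between OSCC and normal tissue (x axis) for each of the 35 members, grouped by role, with points for the limma estimate over 11 rats and bars for its 95% confidence interval. Filled points mark the 10 called genes, open points those not called, crosses the 3 genes not well above background on any array, and dotted lines a 2-fold difference; the called genes run from 1.07 for Tnfrsf18 to 2.16 for Tnfrsf22.

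Among the ligands, Tnf encodes the founding cytokine of the family, a product chiefly of macrophages and T cells that drives inflammation. Its expression was -4.11 to -2.89 in normal tissue (median -3.62) and -3.93 to 0.51 in OSCC (median -0.93). The groups overlapped, because the OSCC values reached from the level of the normal arrays to far above it, and 9 of 11 pairs were higher in OSCC. Tnf rose by 2.11 ± 0.52 (SE, n = 11 pairs, limma adjusted p = 0.0082), or 4.31-fold. Pairs ranged from -0.69 in animal 24 to 4.43 in animal 11. The probe, at chr20:3663558-3663617 of assembly rn4, stood well above background on 3 arrays of normal tissue and 9 of OSCC.

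Tnfsf13 encodes APRIL, which binds receptors of B and plasma cells. It was -2.05 to -0.96 in normal tissue (median -1.13) and -0.78 to 1.94 in OSCC (median 0.30), well above background on all 22 arrays. All OSCC arrays were thus above all normal arrays, as was the case for 2 members, Tnfsf13 and Fas, and for 0.694% of all genes. Tnfsf13 rose by 1.79 ± 0.23 (SE, limma adjusted p = 0.00033), 3.45-fold, and was higher in all 11 pairs, from 0.33 in animal 21 to 3.03 in animal 17. Its probe lies at chr10:56500597-56500656 (rn4). Its highest pair was that of animal 17, in which the median difference of the 10 genes was 0.11. Tnfsf13b, which encodes the related ligand BAFF, differed by 0.11 and was well above background on 1 of the 22 arrays.

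Ltb, Lta and Tnf are neighbors on chromosome 20, and Ltb encodes the membrane-bound subunit of lymphotoxin, a signal for lymphoid tissue. Ltb was -1.92 to -0.81 in normal tissue (median -1.67) and -1.70 to 1.15 in OSCC (median 0.47). Every array was well above background, and 9 of the 11 pairs were higher in OSCC, although the lowest OSCC arrays lay among the normal ones. Ltb rose by 1.54 ± 0.36 (SE, limma adjusted p = 0.0056), 2.91-fold, with pairs from -0.75 in animal 22 to 3.06 in animal 25. Lta, whose product forms the soluble lymphotoxin, differed by 0.20, with 3 OSCC arrays and no normal array well above background, and Ltbr, the receptor of the membrane-bound complex, differed by -0.28.

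Tnfsf9 encodes 4-1BB ligand, made by antigen-presenting cells. It spanned -6.17 to -3.75 in normal tissue (median -4.11) and -5.36 to -2.02 in OSCC (median -2.94). Only 4 normal arrays were well above background, against 9 of OSCC, and the groups overlapped. The gene rose by 1.42 ± 0.40 (SE, limma adjusted p = 0.017), 2.67-fold, and 9 of 11 pairs were higher, from -1.20 in animal 22 to 3.58 in animal 11.

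Of the 13 ligands that were not called, Tnfsf14, which encodes LIGHT, a ligand of the herpesvirus entry mediator, came closest. Its difference was 0.99 (adjusted p = 0.028), just under the fold limit, and no normal array was well above background for it. Tnfsf15, encoding TL1A, had a difference of -0.50 (adjusted p = 0.048) and was lower in 9 of 11 pairs, but short of 2-fold. The apoptosis ligand Tnfsf10 (TRAIL) differed by -0.62 and the TWEAK gene Tnfsf12 by 0.04, the latter well above background on all arrays. The remaining values were 0.39 for Tnfsf18 (GITR ligand), 0.30 for Tnfsf11 (RANK ligand), 0.19 for Tnfsf8 (CD30 ligand) and 0.19 for Cd40lg, the helper T cell ligand of CD40. For Cd70, Eda and Tnfsf4 no array was well above background.

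Fas, the receptor whose death domain recruits FADD and caspase-8, was the only one of the 5 death domain receptors to be called. It was -5.49 to -3.39 in normal tissue (median -4.22) and -3.39 to -1.62 in OSCC (median -2.24), with the lowest OSCC array just above the highest normal one. Fas rose by 1.90 ± 0.29 (SE, limma adjusted p = 0.0007), 3.72-fold. It was higher in all 11 pairs, from 0.41 in animal 22 to 3.63 in animal 25, and stood well above background on 3 arrays of normal tissue and 10 of OSCC. A second probe for Fas did not share this: at chr1:238274686-238274745, against chr1:238259523-238259582 for the first (rn4), it differed by -0.05 (adjusted p = 0.86) and stood well above background on 1 array of normal tissue and 4 of OSCC.

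The other death domain receptors had smaller positive differences. Tnfrsf10b, the TRAIL receptor, differed by 0.61 (adjusted p = 0.036), under 2-fold, with 2 OSCC arrays and no normal array well above background. Tnfrsf25, a receptor for TL1A on T cells, differed by 0.54. Tnfrsf21 (death receptor 6) differed by 0.46 and Tnfrsf1a, the type 1 TNF receptor, by 0.40. Tnfrsf1a and Tnfrsf21 were well above background on all 22 arrays. A second Tnfrsf21 probe differed by 0.91 (limma adjusted p = 0.0014), also under 2-fold. That probe was higher in all 11 pairs, with all OSCC arrays above all normal arrays.

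The decoy receptor Tnfrsf11b encodes osteoprotegerin, which captures RANK ligand and TRAIL. Its values were -4.26 to -3.15 in normal tissue (median -3.54) and -3.46 to -0.96 in OSCC (median -1.61). It rose by 1.78 ± 0.22 (SE, limma adjusted p = 0.00023), 3.42-fold. All 11 pairs were higher in OSCC, from 0.15 in animal 17 to 2.65 in animal 9, although the OSCC array of lowest level lay within the normal range. Being higher in every pair was shared by 4 members (Tnfrsf11b, Tnfsf13, Fas and Tnfrsf22), against 4.67% of all genes.

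**Figure D2:**
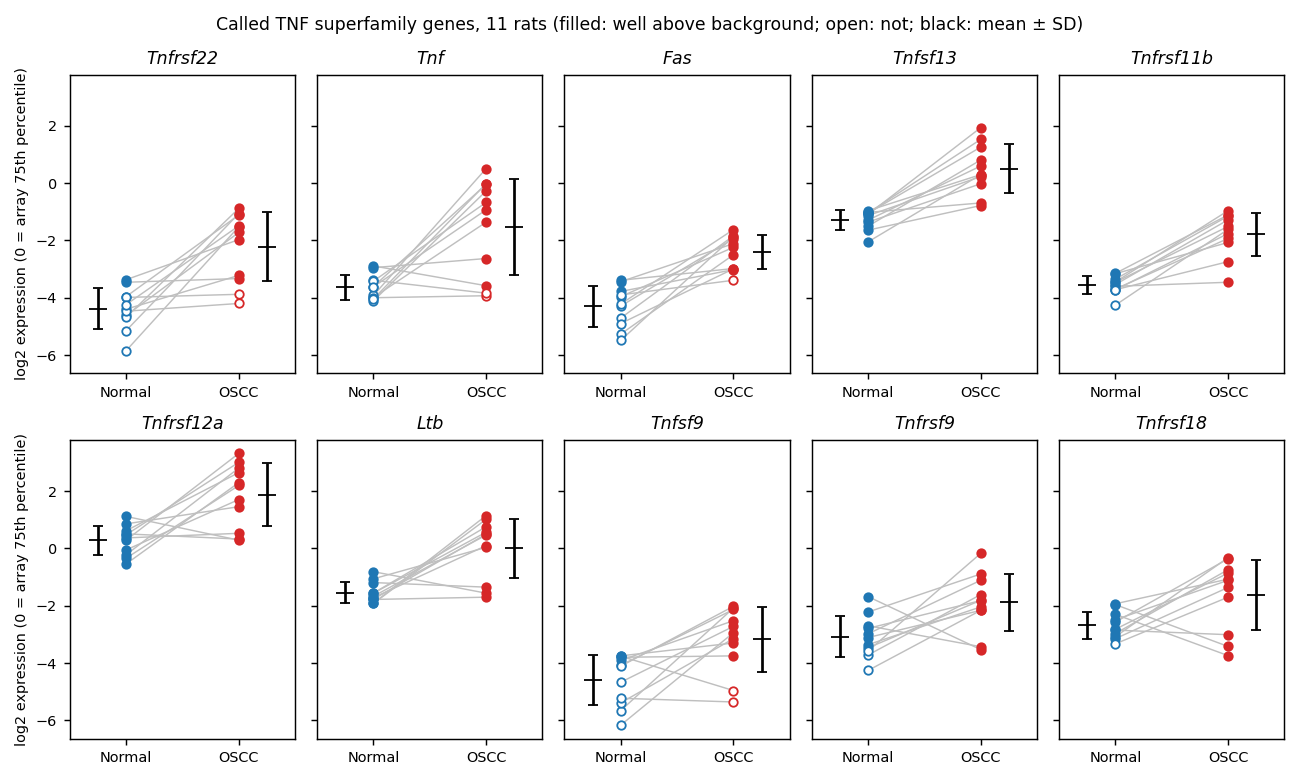
Log2 expression (y axis, 0 is the 75th percentile of the array) of the 10 called genes in normal tissue and OSCC, with 1 point for each array and a gray line joining the 2 tissues of a rat. Filled points are well above background and open points are not; black bars give the mean ± SD of 11 arrays. The OSCC points of Tnf run from -3.93 to 0.51, whereas those of Tnfsf13 and Fas lie wholly above the normal points.

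Tnfrsf22 belongs to the receptors without a death domain. In the mouse its product is a TRAIL receptor that lacks the signaling domain. By role the gene was counted here among the other receptors, not as a decoy. It was -5.85 to -3.37 in normal tissue (median -4.40) and -4.20 to -0.88 in OSCC (median -1.72), with 2 normal and 9 OSCC arrays well above background. Most OSCC arrays lay above the highest normal array, and all 11 pairs were higher, from 0.11 in animal 22 to 4.34 in animal 16. Tnfrsf22 rose by 2.16 ± 0.44 (SE, limma adjusted p = 0.0028), 4.48-fold, and its difference was 0.92 with normexp background correction. Tnfrsf26, a related gene nearby on chromosome 1, differed by 0.60 (adjusted p = 0.036), under 2-fold.

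Tnfrsf12a encodes Fn14, the receptor of TWEAK, which is inducible by growth factors in epithelial cells and fibroblasts. Expression was -0.54 to 1.12 in normal tissue (median 0.37) and 0.29 to 3.32 in OSCC (median 2.20), well above background throughout. It rose by 1.59 ± 0.39 (SE, limma adjusted p = 0.0073), 3.02-fold, while the gene of its ligand, Tnfsf12, differed by 0.04. Higher values in OSCC were found in 9 of 11 pairs, from -0.83 in animal 24 to 3.03 in animal 11.

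Tnfrsf9 (4-1BB) and Tnfrsf18 (GITR) are costimulatory receptors of activated and regulatory T cells. Tnfrsf9 was -4.26 to -1.68 in normal tissue (median -3.11) and -3.53 to -0.17 in OSCC (median -1.82), and it rose by 1.19 ± 0.39 (SE, limma adjusted p = 0.03), 2.28-fold. Tnfrsf18 was -3.33 to -1.93 in normal tissue (median -2.82) and -3.74 to -0.32 in OSCC (median -1.11), and it rose by 1.07 ± 0.40 (SE, limma adjusted p = 0.047), 2.10-fold. In both genes the groups overlapped widely, with 9 and 8 of the 11 pairs higher. For each of them the pair of animal 22 was the lowest, at -1.85 for Tnfrsf9 and -1.46 for Tnfrsf18, and that of animal 25 the highest, at 3.41 and 2.76. Both lost the call when the pair of animal 4, 9, 11, 13, 16, 25 or 26 was left out, and Tnfrsf18 also without animal 21, so both calls lay close to the thresholds.

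Other lymphocyte receptors were not called. For each of those below, the lowest pair was that of animal 22 or 17 and the highest that of animal 25, 9 or 11. Tnfrsf4 (OX40) differed by 0.55, from -1.80 in animal 22 to 2.54 in animal 25, and Cd27 by 0.23, from -2.86 to 2.21 in those animals. Cd40, expressed by B cells and macrophages, differed by 0.94 (adjusted p = 0.022), from -1.37 to 2.15 in the same animals. Tnfrsf14, the herpesvirus entry mediator, passed the fold limit at 1.32 but not the test (adjusted p = 0.051), and its pairs ran from -2.54 in animal 22 to 3.37 in animal 9. Tnfrsf1b, the type 2 TNF receptor of leukocytes, differed by 0.89 (adjusted p = 0.011), and Tnfrsf8 (CD30) by 0.52, from -1.92 in animal 22 to 1.98 in animal 9. Tnfrsf25, the TL1A receptor on T cells, ran from -0.62 in animal 17 to 2.03 in animal 9.

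Second probes gave another call for 3 genes, Fas as above, Cd40 and Tnfrsf1b. The second Cd40 probe rose by 1.28 (limma adjusted p = 0.018), and the second Tnfrsf1b probe rose by 1.81 (limma adjusted p = 0.0032). With all probes of a gene averaged, 11 members were called higher, Fas having been lost and Cd40 and Tnfrsf1b gained. The share of all genes called in that fit is not given here.

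The difference varied from rat to rat. In 8 of the 11 pairs all 10 called genes were higher in OSCC, and in 7 of these pairs their median difference lay between 1.83 and 2.89, the eighth being animal 21 at 0.81. In the other 3 pairs the median was close to 0, at 0.11 in animal 17, -0.17 in animal 22 and -0.05 in animal 24, with 7, 5 and 5 of the 10 genes higher. The 10 genes were chosen for a rise over these same 11 pairs, so their agreement within pairs is partly fixed by that choice. Over all 35 members the median difference was 0.45 in animal 21 and 0.72 to 1.76 in the 7 pairs. It was 0.07 in animal 17, -0.19 in animal 22 and 0.14 in animal 24. The pair of animal 22 was the lowest for 11 of the 35 members and the pair of animal 25 the highest for 9. Animals 21, 22 and 24 had stood apart in earlier results of these data. Without them 15 members were called higher, where 9.61% of all genes were, adding Cd40, Tnfrsf14, Tnfrsf1b, Tnfrsf4 and Tnfsf14 to the 10, and Tnfsf10 was called lower.

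**Figure D3:**
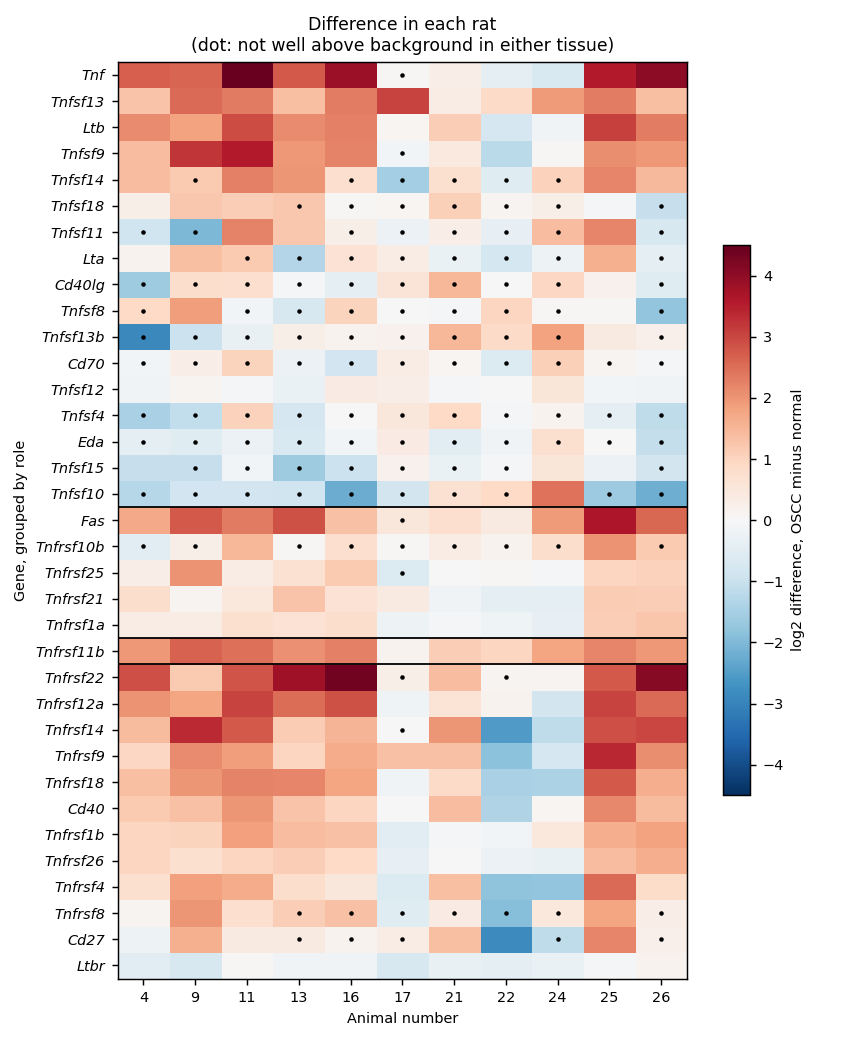
Log2 difference (color, OSCC minus normal, red higher and blue lower) of each of the 35 members (rows, grouped by role with black lines between roles) in each of the 11 rats (columns). Dots mark genes that were not well above background in either tissue of that rat. The columns of animals 17, 22 and 24 are pale or blue in many rows that are red in most other rats. Exceptions include Tnfsf13, red in animals 17 and 24, and Fas and Tnfrsf11b, red in animal 24.

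Marker genes of the cell types that the pieces could hold also differed between the tissues, and their part in the results was not tested. Of 7 T cell markers, 4 were called higher, and their summed linear level was 0.79 to 3.23 times the 75th percentile in normal tissue and 1.06 to 6.24 in OSCC. The log2 ratio of that sum was lowest in animal 22 (-1.39) and highest in animal 25 (2.98), with -0.76 in animal 24 and 0.06 in animal 17. For macrophages 6 of 7 markers were called higher (sum 2.51 to 5.94 in normal tissue and 6.45 to 26.9 in OSCC). For neutrophils 4 of 6 were (0.683 to 4.51 and 1.64 to 395), Mpo not being well above background on any array. The high end of the neutrophil sum rested on S100a8 and S100a9, with highest OSCC log2 values of 7.21 and 7.93. Csf3r reached 1.94 and Mmp8 -0.17, so that sum does not describe the whole list. For B and plasma cells 2 of 4 were called higher (0.0667 to 0.185 and 0.103 to 1.63) and for fibroblasts 6 of 7 (53.4 to 94.6 and 49.7 to 441). Serous gland markers were called higher for all 6 on the array (0.163 to 2.62 and 2.19 to 4780), skeletal muscle markers lower for 5 of 7 (945 to 2050 and 62.5 to 2110), and none of 7 endothelial markers was called (9.96 to 14.6 and 4.15 to 14.0). The pairs of these lists did not follow 1 order: the log2 ratio of the serous gland sum was highest in animals 17 (14.05) and 24 (13.51) and lowest in animals 25 (2.32) and 26 (2.07), while that of the macrophage sum ran from 0.39 in animal 21 to 3.25 in animal 11. Squamous epithelium, the labeled origin of OSCC, was present on all arrays, with 1 of 7 markers called in each direction and a sum of 271 to 393 in normal tissue. In OSCC the sum was 39.7 in animal 24 and 190 to 529 in the other animals.

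Genes that carry the receptor signal were followed with a list of 49 adaptors, kinases, caspases, NF-kappaB genes and further receptors or ligands, of which 38 were on the array. In OSCC 7 rose, 1 fell and 30 were not called, with a median difference of 0.46 and 32 positive differences, where 7.48% of all genes were called higher and 7.24% lower. With scan day as a further term 0 were called in either direction, and with normexp correction 2 higher and 0 lower. Arrays scaled to their median gave 3 higher and 2 lower. The 75th percentile of probes detected on all arrays gave 11 and 0. The median difference of all probes was -0.44 and -0.15 under these last 2 scalings. Shares of all genes called are not given for them, so their counts cannot be read as particular to the list. Ripk3, the kinase of necroptosis, rose by 2.62 (limma adjusted p = 0.0065). It was -4.31 to -1.86 in normal tissue (median -3.31) and -3.25 to 1.67 in OSCC (median 0.15), and 8 of 11 pairs were higher.

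Genes of the extrinsic apoptosis pathway were also among the 7. Casp8, the initiator bound by FADD, was -3.23 to -2.50 in normal tissue (median -2.87) and -2.63 to -0.66 in OSCC (median -1.32). It rose by 1.34 (limma adjusted p = 0.00021) and was higher in all 11 pairs, with the groups overlapping only narrowly. Bid, the caspase-8 substrate that links to mitochondria, rose by 1.19. Cflar, which encodes the caspase-8 inhibitor FLIP, was also higher in all 11 pairs, but its difference of 0.97 was under the fold limit.

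Of the NF-kappaB regulators, Nfkbie (an inhibitor of NF-kappaB) rose by 1.39, the ubiquitin ligase gene Birc3 by 1.06 and Nfkbiz by 1.04. Nfkb1 and Nfkb2, which encode NF-kappaB subunits, differed by 0.75 and 0.88, under 2-fold, whereas Rela differed by 0.05 and Nfkbia by 0.24. The 3 genes of the linear ubiquitin ligase complex, Rnf31 (-0.80), Sharpin (-0.36) and Rbck1 (-0.25), were lower in all 11 pairs, as were 5.91% of all genes, and under 2-fold. The values of Sharpin and Rbck1 lay close to the median of all probes, -0.24. Among the receptors on this list, Eda2r rose by 1.05, although just 1 OSCC array and no normal array was well above background, and Ngfr, the neurotrophin receptor, fell by 1.02 (limma adjusted p = 0.0019). Faslg, the ligand of Fas, differed by 0.32 (adjusted p = 0.26).

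**Figure D4:**
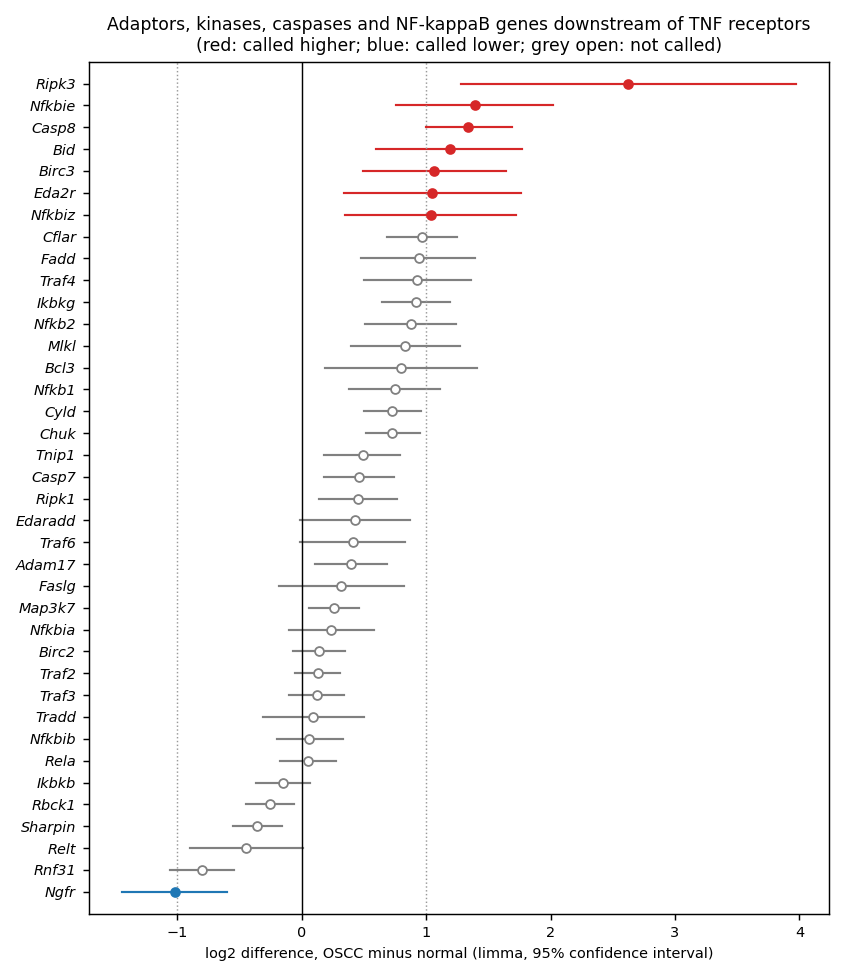
Log2 difference between OSCC and normal tissue (x axis) for the 38 signaling genes on the array, with points for the limma estimate over 11 rats and bars for its 95% confidence interval. Red points were called higher, the blue point lower and open points were not called; Ripk3 at 2.62 stands farthest to the right and Ngfr at -1.02 farthest to the left.

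With normexp background correction 3 members, Tnfsf13, Tnfrsf12a and Ltb, were called higher, where 2.64% of all genes were. These 3 were the called genes well above background on all 22 arrays. All 10 genes kept a positive difference in that fit, between 0.48 and 1.47, and 6 of them passed the adjusted p.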

How the data were processed

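Microarray data of 11 pairs of OSCC and normal tongue tissue were used. The authors hybridized RNA to one-color Agilent Rat GE 4x44K v3 arrays and deposited intensity values from Feature Extraction (9.5.3.1 in the file headers), which are background-subtracted, linear and unscaled between arrays. They also deposited each signal as a ratio to the 75th percentile of its array, used here only as an alternative. Array coordinates are of assembly rn4.

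Control spots and 9196 spots marked as outliers (0.975%) were left out. Spots of the same probe were averaged on the log2 scale, giving 30367 probes, and the 75th percentile of each array was subtracted. A linear model of limma 3.58.1 (R 4.3.3) held tissue and rat, p-values were adjusted over all probes by the Benjamini-Hochberg method, and the test was tried on simulated data. Further steps used Python 3.11.15. Pairs come from 1 rat giving both tissues, although the deviations of its 2 arrays correlated weakly (-0.21 to 0.24 across probes, median -0.02).

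Every member is named, called ones with their range, and those missing 1 threshold with their adjusted p. Called signaling genes are named, up to 10 in each direction, and second probes where the call differed, with that of Tnfrsf21 added. Members, lists and roles were chosen with earlier results of these data known. The signaling list came from general knowledge of the pathway. Of its genes 1, and of the genes matching the member rule 1, are not reported here. Marker lists were those of T cells, B and plasma cells, macrophages, neutrophils, skeletal muscle, serous gland, endothelium, fibroblasts and squamous epithelium. Alternatives covered scaling, background, probe choice, slide, scan day, test and pairs left out. The number of arrays limits precision, as does signal over background for dim genes.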

Additional observations from a re-analysis of the deposited data

How the results depend on the processing

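All 10 called members kept a positive difference under every alternative. They were chosen for a rise in these same arrays, so their sign was close to fixed under most alternatives. Tnfrsf9 and Tnfrsf18 lost the call with quantile normalization, arrays scaled to their median and slide as a random block. With only pairs scanned on different days they lost it too, as did Tnfsf9. Without the pairing, that is with no replicate block, 11 members were called higher and 0 lower, and 7 signaling genes higher and 1 lower, so among the members the block changed the call of Tnfrsf14 alone. Leaving out 1 pair at a time gave 8 to 14 members higher and 0 lower, and 5 to 9 signaling genes higher and 0 to 1 lower; the 8 called members other than Tnfrsf9 and Tnfrsf18 kept the call each time. Ngfr lost its call without animal 13, 21 or 24.

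Normexp correction gave 3 members higher, and 2 signaling genes higher and 0 lower. Scan day as a further term gave 0 members higher, and 0 signaling genes higher and 0 lower. In that fit the tissue difference rested on the pairs of animals 4 and 9 alone. At an unadjusted p, chosen after seeing the data, that term gave 7 members higher and 3 lower, and 6 signaling genes higher and 1 lower. Arrays scaled to their median gave 3 signaling genes higher and 2 lower, and the 75th percentile of probes detected on all arrays 11 and 0. Slide as a random block gave 5 and 0 signaling genes, with 8 members higher. The authors' scaled values gave 9 members higher and 1 lower (Tnfsf10). With no minimum fold, 15 members were higher and 1 lower (Tnfsf15), and 22 signaling genes higher and 4 lower. The shares of all genes without a fold limit are not given here, so these counts cannot be read as particular to either list. Without animals 21, 22 and 24, 1 member was lower and 12 signaling genes were higher and 0 lower. The causes of these shifts were not tested, except that dropping the fold limit or 3 pairs changes the thresholds or the samples by construction. The remaining alternatives gave 7 to 13 members higher and 0 lower. Signal over background limits the size of the differences of Tnf, Fas, Tnfsf9 and Tnfrsf22, for which most normal arrays were not well above background.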
